A study of Homo sapiens with 2 samples.

Results

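The genes described are 10 members of the interleukin-1 system, chosen by symbol from the 22411 genes that have a row of their own on the array. They are the ligands IL1A, IL1B, IL18 and IL33, the receptor antagonist IL1RN, the receptor chains IL1R1, IL1R2 and IL1RAP, and the cytoplasmic adaptors MYD88 and IRAK2. All 10 had a row, and IL1RAP had 2 rows, so 11 of the 70523 rows of the deposited table belong to them. The set was proposed with the difference of IL1A between the arrays already known, so that difference and those of the other members are given as a description.

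The study compared MHCC97H, a human hepatocellular carcinoma cell line, with the same line after knockdown of GP73, a Golgi membrane protein encoded by GOLM1, to look for partners and downstream components of GP73 in the growth of liver cancer cells. The control group was 1 array of MHCC97H control cells, described in the labels as high in GP73, and the knockdown group was 1 array of MHCC97H cells with GP73 knocked down. The sample titles add shv to the name of the line for the control and shGP73 for the knockdown. The control is therefore not labelled as the unmodified line, and the titles do not spell out shv. No other treatment was recorded for either group, and both were grown in DMEM with 10% fetal bovine serum and antibiotics. Each group was therefore 1 sample of 1 cell line, there is no replicate error for any value, and no p-value was computed. The sources used here do not give the knockdown sequence, or say whether the cells were a clone or a pool. Every difference below is the knockdown log2 signal less the control log2 signal, and it compares these arrays, not the conditions.

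Interleukin-1 alpha and beta are inflammatory cytokines that bind the same receptor, IL1R1, which then recruits the accessory chain IL1RAP. The assembled receptor gathers the adaptor MYD88 and kinases of the IRAK family, and the signal ends in activation of NF-kB and the stress kinases. The antagonist IL1RN occupies IL1R1 without recruiting IL1RAP, and IL1R2 is a decoy that binds ligand but cannot signal. Interleukin-18 and interleukin-33 belong to the same ligand family and use receptors of their own. In liver, hepatocytes answer interleukin-1 with acute phase proteins, while macrophages are a main source of interleukin-1 beta.

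As a check of the labels, the GOLM1 signal was set beside that of the other genes. It was 9.13 in control cells and 7.46 after knockdown, and its difference of -1.67 was rank 1 of 22411 genes counted from the lowest. Over all rows the control array had a median of 4.72 and the knockdown array a median of 4.80. A floor of 5.84, the 50th percentile over genes of the higher of both signals, was used to mark dim genes. It is no detection test, so genes under it may still be expressed and genes above it may not be. Differences followed the signal level: when genes were divided by mean signal into 10 bins of equal size, bin 5 had a median difference of 0.135 and bin 10, the brightest, a median of -0.08. In 1164 genes, 5.19% of all, the values of both arrays were identical to the last deposited digit.

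The ligands IL1A and IL1B were higher in the knockdown array, while IL18 and IL33 differed little or not at all. The log2 signal of IL1A was 4.50 in control cells and 6.10 after knockdown. The difference of 1.60 corresponds to 3.04-fold and was rank 2 of all 22411 genes from the highest and rank 1 of the 17151 protein-coding genes. The control signal lay below the floor, where signals carry little information on the size of a difference. Measured from the floor itself, the knockdown signal was 0.26 higher on the log2 scale, or 1.20-fold. In the bin of similar mean signal the central 90% of differences between the arrays ran from -0.36 to 0.40. The full difference of IL1A, on which the gene was chosen, lay outside that range. The value measured from the floor is another quantity and cannot be set against it.

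The IL1B signal was 5.89 in control cells, only just above the floor of 5.84, and 6.51 after knockdown. It was 0.62 higher in the knockdown array, or 1.54-fold, rank 187 of all genes and rank 84 of the protein-coding genes. The central 90% of genes in its bin ran from -0.41 to 0.39. In a bulk RNA sample a larger number of cells with the transcript and more transcript per cell cannot be told apart, for these and all other genes.

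IL18, which is made as a precursor and cut by caspase-1, had signals of 7.46 and 7.42, both above the floor. Its difference of -0.04 turned to 0.01 with quantile normalisation and 0.02 with the signal trend removed, so no direction is given for it. IL33, a nuclear alarmin released from damaged cells, had the same signal of 1.84 in both arrays, far below the floor. The 4 ligands thus split into IL1A and IL1B, higher in the knockdown array, and IL18 and IL33, without a difference of stable sign.

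**Figure D1:**
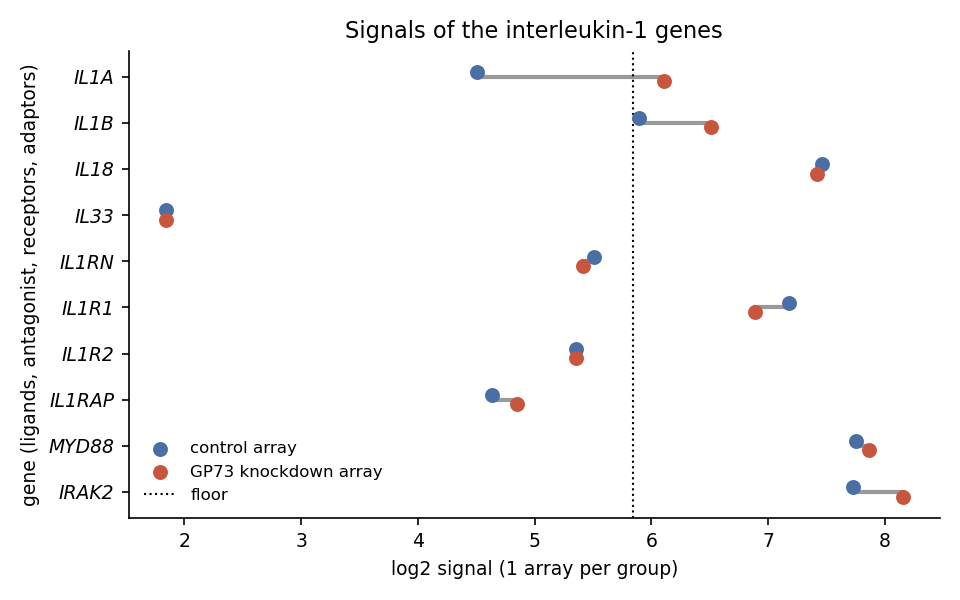
Log2 signal of each of the 10 genes (rows) in the control array (blue) and the GP73 knockdown array (red), 1 array per group, with a grey line joining both values and the floor of 5.84 as a dotted line. IL1A moves from 4.50, below the floor, to 6.10, above it, and the pairs of IL33 and IL1R2 coincide.

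The antagonist did not follow the agonists. Its gene, IL1RN, had a signal of 5.51 in control cells and 5.42 after knockdown, which is a difference of -0.09 with both values below the floor. Genes of its bin had a median difference of 0.135, and with the signal trend removed IL1RN stood at -0.20. The difference was below 0 under each of the 3 scalings tried, the lowest at -0.20.

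Among the receptor chains, the signalling receptor was lower and the others were dim. The IL1R1 signal was 7.18 in control cells and 6.89 after knockdown, both above the floor. Its difference of -0.29, or 1.22-fold lower, was the lowest of the 10 genes, though it lay inside the central 90% of its bin, which reached down to -0.44. Among the members above the floor in both arrays it was the one most clearly lower in the knockdown array, since IL18 had no stable sign. IL1R2, the decoy, had an identical signal of 5.35 in both arrays, below the floor. IL1RAP, the accessory chain, was represented by 2 rows, both below the floor. The brighter row, TC03001047.hg.1, went from 4.64 to 4.85, a difference of 0.22, and the other, TC03001048.hg.1, was 3.84 in both arrays, so the rows disagree on whether there was any difference.

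Both adaptors had signals above the floor in each array, and IRAK2 was the higher of them in difference. IRAK2, a kinase-related adaptor that carries the signal on to the ubiquitin ligase TRAF6, gave 7.72 in control cells and 8.15 after knockdown. Its difference of 0.43, or 1.35-fold, was rank 844 of all genes and lay just above the central 90% of its bin, which ended at 0.39. The median difference in that bin was -0.08, and with the trend removed IRAK2 stood at 0.51. MYD88, the adaptor shared with Toll-like receptors, had signals of 7.76 and 7.86, a difference of 0.11 that lay inside the range of its bin.

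Counted over the 10 genes, 5 were higher in the knockdown array, 3 lower and 2 identical. The median difference of the 10 was 0.05 and that of all genes 0.06. Of the 10, 2 were at least 1.5-fold higher, IL1A and IL1B, against 1.16% of all genes, and 1, IL1A, was at least 2-fold higher, against 0.0982%. None was at least 1.5-fold lower, against 1.25% of all genes, or 2-fold lower, against 0.103%. Because the members were chosen on this comparison, nothing is read from these shares. At or above the floor were 5 members in both arrays, IL1A in the knockdown array alone, and the remaining 4 in neither. IL1B stood close to the 1.5-fold threshold and fell short of it with median centring, at 0.54, with quantile normalisation, at 0.58, and with the trend removed, at 0.58.

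**Figure D2:**
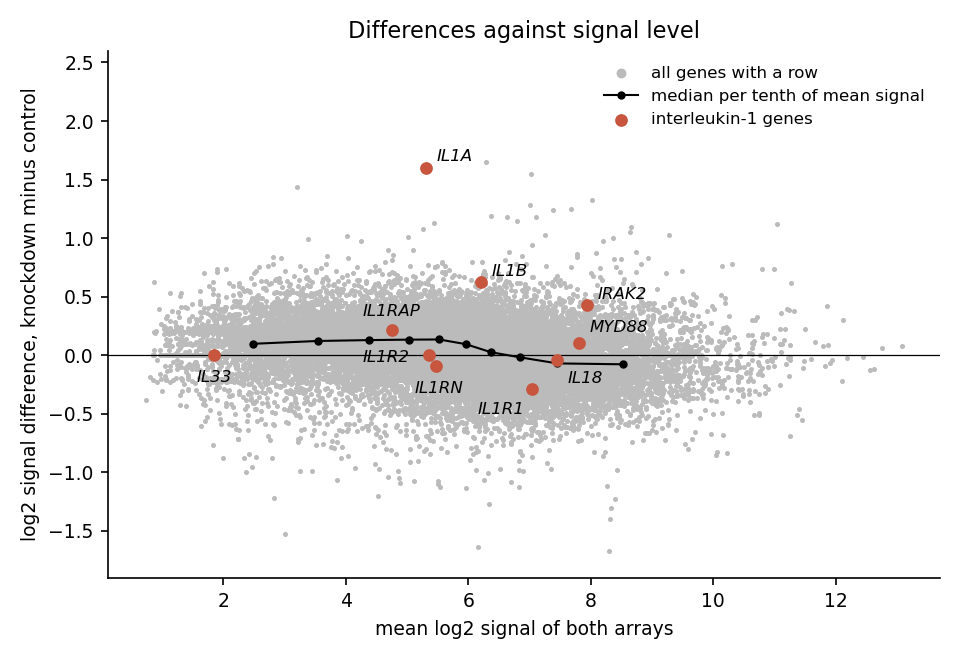
Log2 difference (knockdown minus control, vertical axis) against the mean log2 signal of both arrays (horizontal axis) for all 22411 genes in grey and the 10 interleukin-1 genes in red, with the median of each of the 10 bins as a black line. IL1A lies above nearly all genes, IL1B lies near the upper edge of the cloud, and IRAK2 lies just above the central 90% of its bin. The black line falls from 0.135 in bin 5 to -0.08 in bin 10.

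A measure of error within an array came from 99 genes with exactly 2 differing rows above the floor. From the spread between the rows of such a gene, the SD of a single row's difference was 0.133. Over all genes, dim ones included, the SD of the differences was 0.25. The SD of 0.133 was not measured for dim genes such as IL1RAP, IL1RN, IL1R2 and IL33. It leaves out how much cultures, RNA extractions and hybridisations vary, and it is too small if paired rows have probes in common.

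**Figure D3:**
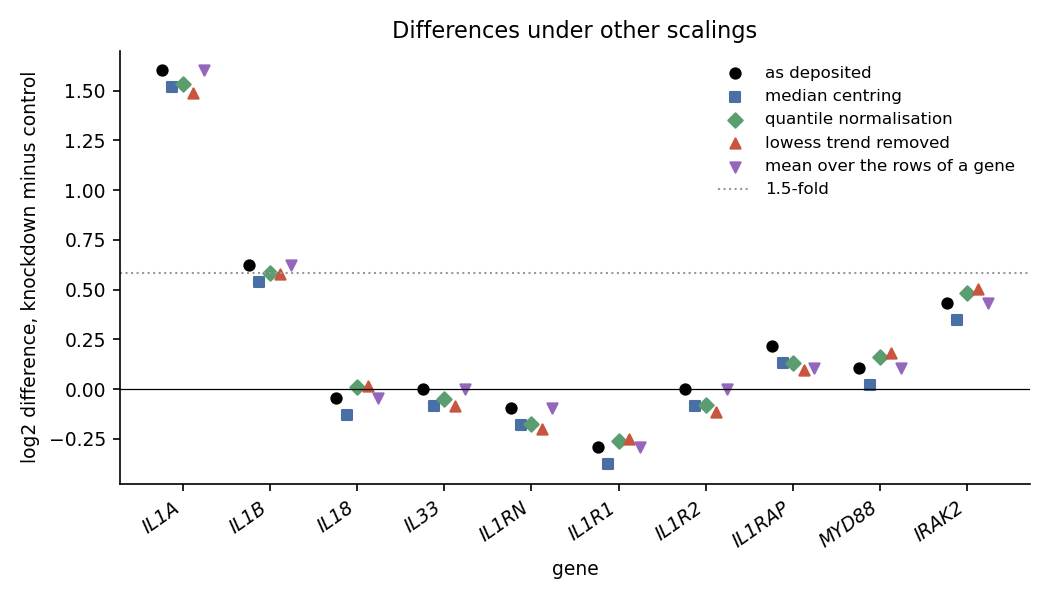
Log2 difference (knockdown minus control) of the 10 genes as deposited and under each of 4 alternatives, with the 1.5-fold threshold as a dotted line. IL1A stays between 1.49 and 1.60, IL1B lies between 0.54 and 0.62 around the threshold, IRAK2 lies between 0.35 and 0.51, and IL18 falls on both sides of 0.

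The sequences upstream of IL1A, IL1B and IRAK2 are shown because these were the 3 members with the highest differences. Each run is the 250 bases before the first transcription start that RefSeq lists for the gene, in build GRCh38.p14, read 5′ to 3′ on the gene's own strand. IL1A lies at chr2:112784494-112784743 on the minus strand, IL1B at chr2:112836780-112837029 on the minus strand and IRAK2 at chr3:10164669-10164918 on the plus strand. Capitals mark matches, on either strand, to TATAAA, to the AP-1 motif TGANTCA and to the C/EBP-like motif TTNNGNAA.
IL1A: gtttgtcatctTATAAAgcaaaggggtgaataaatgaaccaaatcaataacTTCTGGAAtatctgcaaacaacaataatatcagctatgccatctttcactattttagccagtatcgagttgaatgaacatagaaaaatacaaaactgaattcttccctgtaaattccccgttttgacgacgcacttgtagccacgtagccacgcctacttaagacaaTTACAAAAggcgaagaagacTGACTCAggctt
IL1B: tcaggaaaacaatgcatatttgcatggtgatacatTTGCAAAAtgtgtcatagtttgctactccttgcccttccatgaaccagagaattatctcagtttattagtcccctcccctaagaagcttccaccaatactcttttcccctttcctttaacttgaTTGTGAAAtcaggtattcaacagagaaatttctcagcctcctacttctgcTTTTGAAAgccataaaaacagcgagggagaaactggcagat
IRAK2: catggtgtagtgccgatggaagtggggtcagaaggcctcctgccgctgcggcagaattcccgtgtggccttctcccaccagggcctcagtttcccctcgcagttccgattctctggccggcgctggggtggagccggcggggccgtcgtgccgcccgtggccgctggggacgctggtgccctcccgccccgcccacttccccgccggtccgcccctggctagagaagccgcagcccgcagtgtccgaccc
The windows of IL1A and IL1B, adjacent genes on chromosome 2, held different matches. The IL1A window held 1 match to TATAAA, 239 bases before the start, 1 to the AP-1 motif, TGACTCA, 12 bases before it, and 2 to the C/EBP-like motif. The IL1B window held 3 matches to the C/EBP-like motif and none to the others, and the IRAK2 window held no match to any. No match overlapped another. A search for the kappa-B consensus, the sequence bound by NF-kB, found no match in the windows of the 9 members with a window in the table. Among the first listed windows of all 27305 genes, 11.1% held TATAAA, 6.6% the AP-1 motif, 33.6% the C/EBP-like motif and 9.57% the kappa-B consensus. The AP-1 motif was also present upstream of IL1RN, as TGAGTCA 223 bases before its start. The matches are letters in a window and were not tested as binding sites.

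IL1A, IL1B and IL1RN belong to a cluster of 9 ligand genes on chromosome 2, and the differences within it were uneven. From IL1A to IL1RN the order is IL1A, IL1B, IL37, IL36G, IL36A, IL36B, IL36RN, IL1F10 and IL1RN. The genes other than the members were looked up for their place in the cluster. Next to IL1B, IL37, an anti-inflammatory family member, had the same signal of 4.11 in both arrays. IL36A, an epithelial cytokine, had signals of 4.61 and 5.12, a difference of 0.52, and was below the floor in both arrays. The other 4 genes between IL37 and IL1RN differed by 0.08 to 0.22, also below the floor. CKAP2L, the neighbour of IL1A outside the cluster, coding for a spindle protein, was above the floor at 8.16 and 8.09. PSD4, the neighbour of IL1RN, differed by 0.03. The 2 genes of the cluster past 1.5-fold were therefore adjacent, at one end of it, and the flanking genes on either side differed by less than 0.1.

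The receptors IL1R2 and IL1R1 lie in a second cluster on chromosome 2, followed by IL1RL2, IL1RL1, IL18R1 and IL18RAP. IL1R1 was the 1 gene of these 6 above the floor. IL1RL2, the receptor of the interleukin-36 ligands, had signals of 5.32 and 5.15, and IL18R1, the ligand-binding receptor of interleukin-18, had signals of 4.30 in both arrays. IL1RL1, the receptor of interleukin-33, differed by 0.24 and IL18RAP by 0.18, both far below the floor. None of the 6 was 1.5-fold different.

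**Figure D4:**
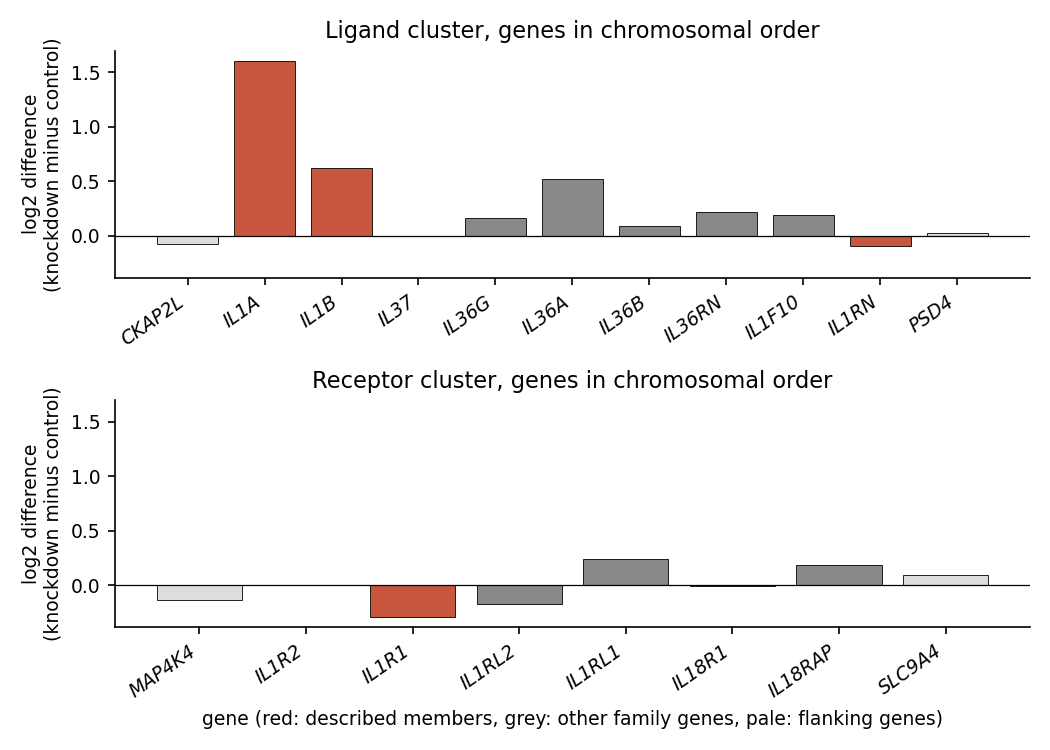
Log2 difference (knockdown minus control) of the genes of the ligand cluster (upper panel) and the receptor cluster (lower panel) on chromosome 2, in chromosomal order, with the described members in red, other family genes in grey and flanking genes pale. The ligand cluster shows IL1A at 1.60 beside IL1B at 0.62, and the receptor cluster shows no gene past 1.5-fold; IL37, IL1R2 and IL18R1 have no visible bar because their differences were 0.00.

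The other genes of the pathway were examined in 5 lists, which were drawn up with earlier results of these data known. Over all genes 57.8% were higher in the knockdown array and the median difference was 0.06, and over genes reaching the floor these were 47.8% and -0.01. Of the 14 other ligands, receptors and inhibitors of the interleukin-1 family, 11 were higher and 2 lower, with a median of 0.14 that fell to 0.02 once the signal trend was removed. The 1 gene of this list above the floor was SIGIRR, an inhibitory receptor of the family, at 6.30 and 6.65, a difference of 0.35.

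The proximal signalling genes below the receptor showed no common shift. Of 20 listed genes 16 had a row, of which 9 were higher and 7 lower, with a median of 0.05. TRAF6, the ubiquitin ligase downstream of IRAK2, had signals of 7.19 and 7.18, and MAP3K7, the kinase TAK1, 8.11 and 8.09, both chosen after their values were seen. ECSIT, a TRAF6-binding protein that also serves in mitochondria, differed by 0.33, TICAM1, an adaptor of Toll-like receptors, by 0.26, and PELI2, a ubiquitin ligase of the Pellino family, by 0.21. TOLLIP, which restrains IRAK1, stood at -0.18. No gene of this list reached 1.5-fold in either direction.

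The genes of the inflammasome and of interleukin-1 processing and release differed in both directions, without any past 1.5-fold. Of 22 with a row 14 were higher, 7 lower and 1 identical, with a median of 0.05. PYCARD, the adaptor protein ASC that links inflammasome sensors to caspase-1, had signals of 7.98 and 8.49 and a difference of 0.50. NEK7, a kinase needed for activation of the NLRP3 sensor, had signals of 6.94 and 6.41 and a difference of -0.53. PRTN3, a neutrophil protease, and NLRP6, a sensor of the same family as NLRP3, both differed by 0.34, and NLRP6 reached the floor in the knockdown array alone. CASP1, the protease that matures interleukin-1 beta and interleukin-18, was far below the floor at 2.76 and 2.97. CAPN2, a calpain subunit of the class that cuts interleukin-1 alpha, was at 8.81 and 8.82. CASP1 and CAPN2 were chosen after their values were seen.

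Genes known to be induced by interleukin-1 in many cell types were more often higher than lower, as were all genes, of which 57.8% were higher. Of 24 with a row 17 were higher and 7 lower, with a median of 0.23 against 0.06 over all genes, and 17 were also higher with the trend removed, when the median was 0.14. Of the 10 reaching the floor 6 were higher, where 47.8% of all genes reaching it were. The median of the 10 was 0.21, and it was 0.08 over those reaching the 75th percentile and 0.13 with median centring. Of the 14 below it in both arrays 11 were higher, where 67.8% of all genes were. None was at least 1.5-fold higher in the signals as deposited, taking the brightest row of each gene. IER3, an immediate early survival gene, had signals of 7.49 and 8.06 and a difference of 0.57, and its 6 rows ran from 0.42 to 0.67. All rows but those at 0.57 and 0.67 gave 0.42. With signals of 7.57 and 7.98, they were almost as bright on average as the row used. IER3 passed 1.5-fold in the row at 0.67, and the row used stood at 0.64 with the trend removed. TNFAIP3, the feedback inhibitor of NF-kB also called A20, had signals of 6.32 and 6.86 and a difference of 0.54. CXCL5, a neutrophil chemokine, differed by 0.37, and NFKBIA, the inhibitor of NF-kB that NF-kB itself induces, by 0.31, from 8.11 to 8.41. Those reaching the floor that were lower were NFKBIZ at -0.21, TNFAIP2 at -0.21, ICAM1 at -0.14 and LCN2 at -0.08. These were named after their values were seen. The classical targets CXCL8 and IL6, chosen after their values were seen, were below the floor in both arrays. Signals were 3.42 and 3.65 for CXCL8 and 4.25 and 4.49 for IL6. Other genes below the floor, also chosen after their values were seen, differed more, PTGS2 by 0.52, CXCL1 by 0.47 and CCL2 by 0.42. CCL20 at -0.22 and VCAM1 at -0.14 were lower, again named after their values were seen. MMP1, an interstitial collagenase also chosen after its values were seen, was the 1 gene at least 1.5-fold lower, at -0.69, and was below the floor in both arrays.

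Hepatocyte acute phase genes, listed as answering to interleukin-1 or interleukin-6 without telling these apart, did not differ in 1 direction. Of 18 with a row 11 were higher and 7 lower, with a median of 0.11 that became -0.01 with the trend removed. None was at least 1.5-fold higher, against 1.16% of all genes, and 3 were at least 1.5-fold lower, against 1.25%. These were FGA, the fibrinogen alpha chain, at -1.13, CP, the plasma ferroxidase ceruloplasmin, at -1.11, and FGB, the fibrinogen beta chain, at -1.20. FGB was below the floor in both arrays and is named after its value was seen, and FGA was below it in the knockdown array. FGA and FGB code for chains of the same protein. FGG, the fibrinogen gamma chain, was at -0.47, below the floor in both arrays, and is also named after its value was seen. HAMP, the iron hormone hepcidin, had signals of 6.31 and 6.72 and a difference of 0.41, and CEBPD, a transcription factor of the acute phase response, differed by 0.17.

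**Figure D5:**
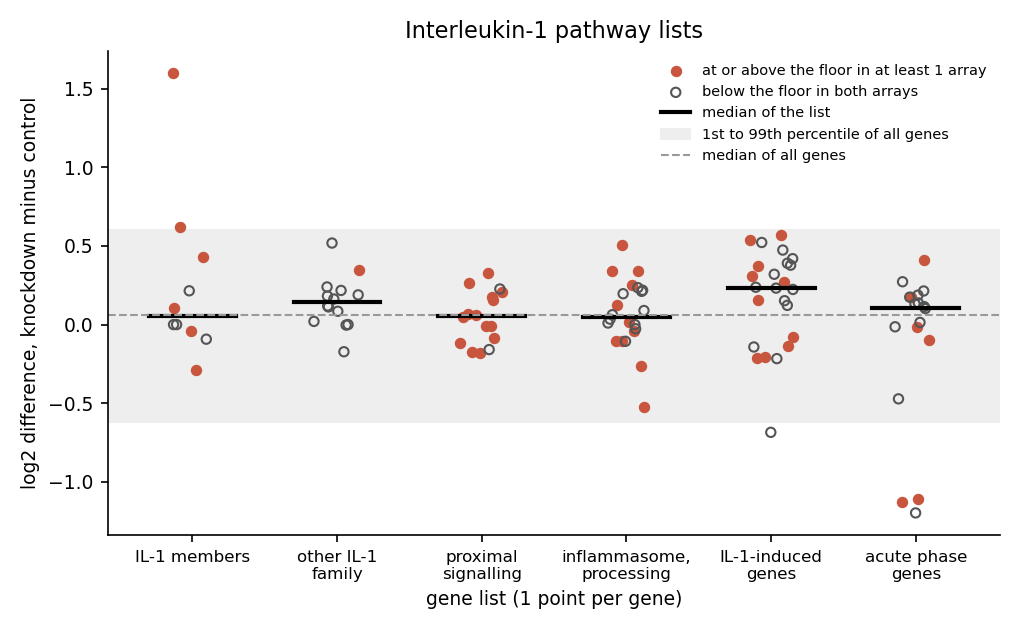
Log2 difference (knockdown minus control) of each gene with a row in the 10 members and the 5 pathway lists, with filled points at or above the floor in at least 1 array, open points below it in both, a black bar at each list's median, a grey band from the 1st to the 99th percentile of all genes and a dashed line at their median. IL1A and IL1B lie above the band, FGA, FGB and CP far below it, and the bar of the interleukin-1-induced genes stands at 0.23.

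Markers of other cell types were compared in the same arrays, although both arrays were of cultures of 1 carcinoma cell line. Of 13 monocyte, macrophage and Kupffer cell markers with a row, 1 reached the floor, TYROBP, a signalling subunit of myeloid receptors, at 6.34 and 6.86. The mean log2 signal of that list was 4.58 in control cells and 4.70 after knockdown, with 10 markers higher and 2 lower. With the trend removed 7 of the 13 were higher and the median fell from 0.13 to 0.04. Of 13 other leukocyte markers all 13 were higher, by 0.03 to 0.47, with a mean signal of 4.57 and 4.82 and a median difference of 0.27, and with the trend removed 11 were higher and the median was 0.15. The pan-leukocyte marker PTPRC, chosen after its values were seen, was at 2.34 and 2.42. Of this list 1 reached the floor in both arrays, CD79A of B cells at 6.07 and 6.10, and NKG7, MPO and CD8A reached it in the knockdown array alone, with differences of 0.47, 0.33 and 0.16. Of 14 fibroblast, stellate and endothelial markers 12 were higher and 2 lower, with a median of 0.17 that was 0.07 with the trend removed, and the 4 that reached the floor were PECAM1 at -0.72, LYVE1 at 0.19, COL1A1 at 0.17 and KDR at -0.06. Over all genes below the floor in both arrays 67.8% were higher. The part of such cells in the differences of IL1A and IL1B was not tested.

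The hepatocyte identity of the line was only partly visible. Of 13 hepatocyte markers with a row 9 reached the floor, among them APOH, an apolipoprotein, at 9.07 and 8.87, and the keratin gene KRT18 at 10.9 and 10.8. ALB and AFP, the albumin and alpha-fetoprotein genes, were below the floor in both arrays, at 4.35 and 3.76 for ALB and at 2.56 in both for AFP. Of the markers by rule, APOB differed by -0.47, FOXA2 by -0.26 and APOA2 by 0.23, and the list's median was -0.05. KRT18, ALB and AFP were chosen after their values were seen.

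The genes nearest to IL1A and IL1B in both signals were then listed, by Euclidean distance over the log2 signals of the 2 arrays. Nearest to IL1A were the pseudogene RNA5SP113 at a distance of 0.38, the immunoglobulin segment IGHD2-21 at 0.39 and the microRNA gene MIR4451 at 0.58, with differences of 1.08, 1.13 and 0.90, so no protein-coding gene was among its 3 nearest. Nearest to IL1B were an immunoglobulin light chain segment at a distance of 0.01, SEMA7A, a membrane semaphorin, at 0.02, and CLIC3, a chloride channel family gene, at 0.03, with differences of 0.63, 0.59 and 0.66. With 1 array per group a likeness of this kind rests on 2 values per gene.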

How the data were processed

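Total RNA of 1 control and 1 GP73 knockdown culture was hybridised to 1 Affymetrix array each, after labelling from 100 ng of RNA, per the labels' protocols. The deposited table holds 1 log2 signal per row and array, which the submitters' processing notes credit to Affymetrix Expression Console. The sources used here state neither its version nor the background correction, normalisation and genome build, and the values alone show the log2 scale. With 1 array per group precision is unknown and no test was run.

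Rows were named through the platform annotation, which gave 1 symbol for 23781 rows and several for 1543; 45199 rows were unnamed here. Symbols were updated to the RefSeq table of GRCh38.p14. Where a gene had more than 1 row, as 528 did, its brightest row on average was used. Members, lists, rules and alternatives were chosen with earlier results of these data known. The rule names the 10 members, GOLM1, from each list the 4 genes reaching the floor that differ most in either direction, and the 3 nearest genes of IL1A and IL1B. Genes named outside it are marked, or are named for their place in a gene cluster. The alternatives were median centring, quantile normalisation, removal of a lowess trend with a fraction of 0.3, the mean over rows, other floors, a 3-fold threshold and the mean of a list. Median centring, quantile normalisation and trend removal were tested on simulated arrays with known folds, a constant shift and equal noise at all signal levels. A trend with signal level, the floors, the list medians and the motif search were not simulated. Promoter windows were RefSeq sequences, matched by symbol for 9 of the 10 members. Python 3.11.15, numpy 2.4.6, pandas 2.3.3 and statsmodels 0.14.6 were used.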

Additional observations from a re-analysis of the deposited data

How the results depend on the processing

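The differences of the 10 members and of GOLM1 moved by less than the within-array SD of 0.133 under each of the 3 scalings tried, 30 of 30 values for the members. Median centring shifts every gene by the same amount, here to -0.09 from 0.00 for IL1R2. The SD was also not measured for the dim members, so the count is no test of how firm the differences are. The mean over rows could alter only IL1RAP, which has 2 rows, to 0.11. IL1A kept 1.49 to 1.60, IL1B 0.54 to 0.62, IRAK2 0.35 to 0.51 and IL1R1 -0.38 to -0.25. IL18 changed sign, between -0.13 and 0.02. The number of members at least 1.5-fold higher, 2 of those reaching the floor, was 1 with median centring, quantile normalisation, the trend removed or the floor required of the mean signal, and 0 when the floor was the 75th percentile. IL1B was lost through the scalings and IL1A through the floor on the mean, by construction. The number at least 2-fold higher, 1, was 0 with either of those floors. At 3-fold it was 1 as deposited, where IL1A only just passed, and IL1A fell short of 3-fold at 1.52 with median centring, 1.53 with quantile normalisation and 1.49 with the trend removed. No member was lower past 1.5-fold in any setting. List medians were also taken over genes reaching the floor, and of 68 alternative values of these 62 moved by less than 0.133. With no floor the median was 0.14 for the other interleukin-1 family genes, against 0.35 with it, 0.11 for the acute phase genes, against -0.06, and 0.13 for the macrophage markers, against 0.51. The 0.35 and 0.51 are the values of SIGIRR and TYROBP, the 1 gene of each list reaching the floor. The acute phase list also stood at -1.11 with the higher floor, the value of CP alone, and at -0.29 as a mean. The fibroblast and endothelial list had a mean of -0.11 against a median of 0.05. No paired analysis was possible because each group has 1 array, and no replicate could be left out. Signals below the floor limit IL1A in the control array and IL1RN, IL1R2, IL1RAP and IL33 in both.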
